A study of Solenopsis invicta with 3 samples.

Results

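The odorant receptors (ORs) that gave the most RNA in the antennae of fire ant workers (Solenopsis invicta) were described in 3 RNA-Seq libraries. The reference to which the reads were assigned held 473 OR models, named SiOR with a number, among 19703 entries. Of these, 65 entries averaged 100 or more normalized counts across the 3 libraries and are called the strongly expressed ORs. A normalized count is the estimated read count of an entry divided by a size factor of its library, taken from the 75th percentile over all entries. A further 305 OR entries had a mean of 10 to under 100, and 103 had a mean below 10. The strongly expressed ORs were chosen by these mean counts, so that all levels and ratios below are a description of these libraries, with no test.

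Each library stood for 1 worker class. P_Bb held antennae of polygyne workers that carried both variants of the social supergene (SB/Sb), P_BB antennae of polygyne workers with the SB/SB genotype, and M_BB antennae of monogyne workers with the SB/SB genotype. Polygyne colonies have several queens and monogyne colonies have a single queen. Each library was a mixture of 4 samples that had been amplified separately from antennal RNA. P_Bb and P_BB workers were taken from 1 shared set of polygyne colonies and M_BB workers from separate monogyne ones, so that social form and colony cannot be told apart. No class had a replicate library, and every interval below is a 95% Clopper-Pearson interval for counting error alone, which compares libraries and not worker classes. The tissue could not be checked against antennal marker genes, because the entries outside the OR set carry no gene names in the files. Genome positions and sequences of the OR models were not analysed here.

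Insect ORs are membrane proteins of the sensory neurons that fill the hair-like sensilla of the antenna. A receptor tuned to certain odorants works in a complex with a co-receptor that is shared by nearly all OR neurons. Most such neurons use 1 tuned receptor, so that the RNA of a given OR in a whole antenna depends both on how many neurons use it and on how much each of them makes. Fewer cells and less RNA per cell cannot be told apart in these mixtures. The OR family is greatly expanded in ants, whose workers recognise nestmates and queens by odour. What the individual SiOR models bind is not given in the files, and no role is assigned to any of them below.

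The 65 entries held about as many OR reads as the 408 other models together. They took 49.1% of the OR counts in P_Bb (48.5 to 49.7), 49.0% in P_BB (48.4 to 49.6) and 51.2% in M_BB (50.6 to 51.8). The intervals leave out the doubt in dividing reads between similar entries, so that they do not show that the libraries differ in this share. For the entry SiOR1_co alone this doubt was 719 to 1244 counts (a standard deviation, explained below), beside 25624 to 27484 OR counts per library. All OR entries held 0.765%, 0.794% and 0.696% of the library totals of 3351500, 3421923 and 3948464 counts, in the same order of libraries. The strongly expressed ORs alone held 0.375%, 0.389% and 0.356% of these totals. These shares leave out an entry of the official gene set that shared reads with SiOR1_co, described below. The OR reads were thus a small portion of the antennal RNA in every library.

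A single entry, SiOR1_co, stood far above the others. It had 2248 normalized counts in P_Bb and 3086 in P_BB, against 3072 in M_BB. The files do not explain the suffix of its name. Per length, as TPM (read counts scaled by model length and library total), its level was 468 in P_Bb and 656 in P_BB, against 657 in M_BB, and its mean TPM was 5.45 times that of the next OR. Among the other 64 entries the mean normalized count ran from 100.9 to 391, with a median of 137. Their share of the OR counts that remain without SiOR1_co was 44.5% in P_Bb (43.9 to 45.2), 42.8% in P_BB (42.2 to 43.4) and 44.2% in M_BB (43.6 to 44.9).

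The level of SiOR1_co depended on how reads were divided between it and an entry of the official gene set, SINVm1_gene_03620. RSEM, the program that made the counts, divides the reads that fit several entries and gives the posterior standard deviation (SD) of each entry's count. For SiOR1_co this SD was 719 counts in P_Bb and 1244 in P_BB, against 777 in M_BB, and SINVm1_gene_03620 had SDs equal to these within 0.05 counts in every library. The models have lengths of 1440 and 1437 bases. The credibility interval that RSEM gave for SiOR1_co was wide, at 138 to 690 TPM in P_Bb, 180.2 to 1048 TPM in P_BB and 579 to 1081 TPM in M_BB. The 3 libraries overlap in these intervals, so that the level of SiOR1_co alone did not separate them.

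For the sum of the 2 entries, the posterior mean and the expected count differed by less than 0.05 counts in every library. Together they had 4613 normalized counts in P_Bb and 5110 in P_BB, against 6671 in M_BB. By expected counts, SiOR1_co was given 48.7% of the sum in P_Bb and 60.4% in P_BB, against 46.0% in M_BB. Its expected count was 2108 in P_Bb and 2958 in P_BB, against 3418 in M_BB, and its posterior mean was 1968, 2910 and 4280. These estimates were furthest apart in M_BB, so that the near-equal levels of SiOR1_co in P_BB and M_BB rest on the use of expected counts. For SiOR1_co alone the ratio was 0.728 for P_Bb over P_BB and 1.005 for P_BB over M_BB, and this second ratio lay on either side of equality depending on the scaling. For the sum it was 0.903 for P_Bb over P_BB (0.866 to 0.941), 0.766 for P_BB over M_BB (0.739 to 0.794) and 0.692 for P_Bb over M_BB (0.666 to 0.718). M_BB was highest and P_Bb lowest for the sum with each of the 5 scalings tried and with TPM, where P_BB over M_BB ran from 0.668 to 0.766. Whether both models stand for 1 gene was not tested, since their sequences were not compared.

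**Figure D1:**
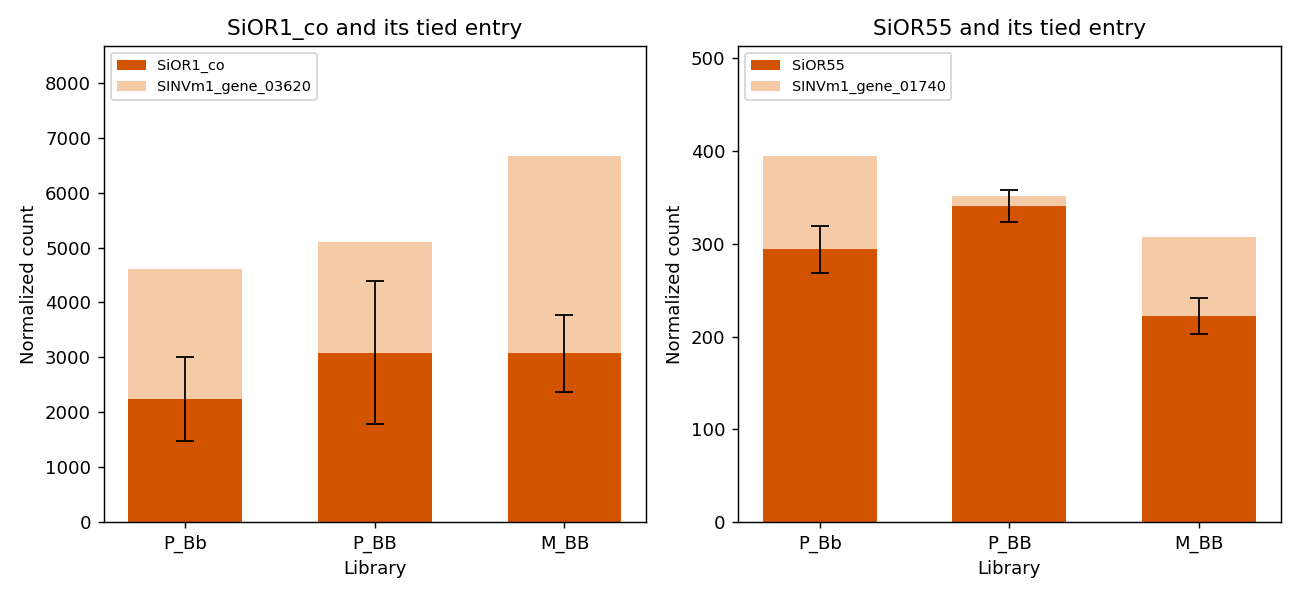
Stacked bars give normalized counts per library for SiOR1_co with SINVm1_gene_03620 (left) and SiOR55 with SINVm1_gene_01740 (right), and the black error bars give the posterior SD of the OR entry's own count, divided by the size factor. The sum of the left pair was lowest in P_Bb at 4613 and highest in M_BB at 6671, and the boundary within the left bars carries a posterior SD of 719 to 1244 counts.

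Of the other entries, 4 were tied in the same way to 1 entry of the official gene set. SiOR55 had 294 normalized counts in P_Bb and 341 in P_BB, against 222 in M_BB, and its partner SINVm1_gene_01740 had 101, 11.1 and 85.5 in that order. Their sum was 395 in P_Bb and 352 in P_BB, against 307 in M_BB, so that the highest library was P_Bb for the sum and P_BB for SiOR55 alone. SiOR58, SiOR98 and SiOR282 also had a tied partner each, but the partners were listed at 0 expected counts in every library and the ratios were the same with and without them. In all, 14 of the 65 entries had a posterior SD of at least 3 counts in every library, and some of these had no single tied partner. Among the latter, SiOR13 had a posterior SD of 11.4 counts in P_Bb and 12.3 in P_BB, against 11.1 in M_BB. SiOR444 had 13.1, 11.5 and 12.7 in the same order. For 32 of the 65 entries the posterior SD was under 1 count in all libraries, and for 10 of them it was 0, so that the division of reads left little doubt in their counts.

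Per length, the levels of the strongly expressed ORs declined in small steps below SiOR1_co, except for a gap above the lowest, SiOR471. SiOR251 came next with 108 TPM in P_Bb and 101 in P_BB, against 117 in M_BB, followed by SiOR211 with 99.2, 103.7 and 91.8 TPM. SiOR292 had 98.9 TPM in P_Bb and 104.5 in P_BB, against 62.9 in M_BB. SiOR251 and SiOR292 changed rank between libraries while SiOR211 ranked 3 in each, and SiOR251 and SiOR211 lay within each other's credibility intervals in P_BB but not in M_BB. The list of the 10 highest by mean TPM goes on with SiOR444 (82.8), SiOR359 (79.4), SiOR55 (74.4), SiOR160 (69.0), SiOR212 (65.1) and SiOR58 (65.0). Of the 10 highest entries, 8 were among the 10 highest in every library. Neighbours below SiOR292 in this order differed by little: SiOR444 had 84.1 TPM in P_Bb (67.4 to 96.9), within which the 87.3 of SiOR359 also fell.

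**Figure D2:**
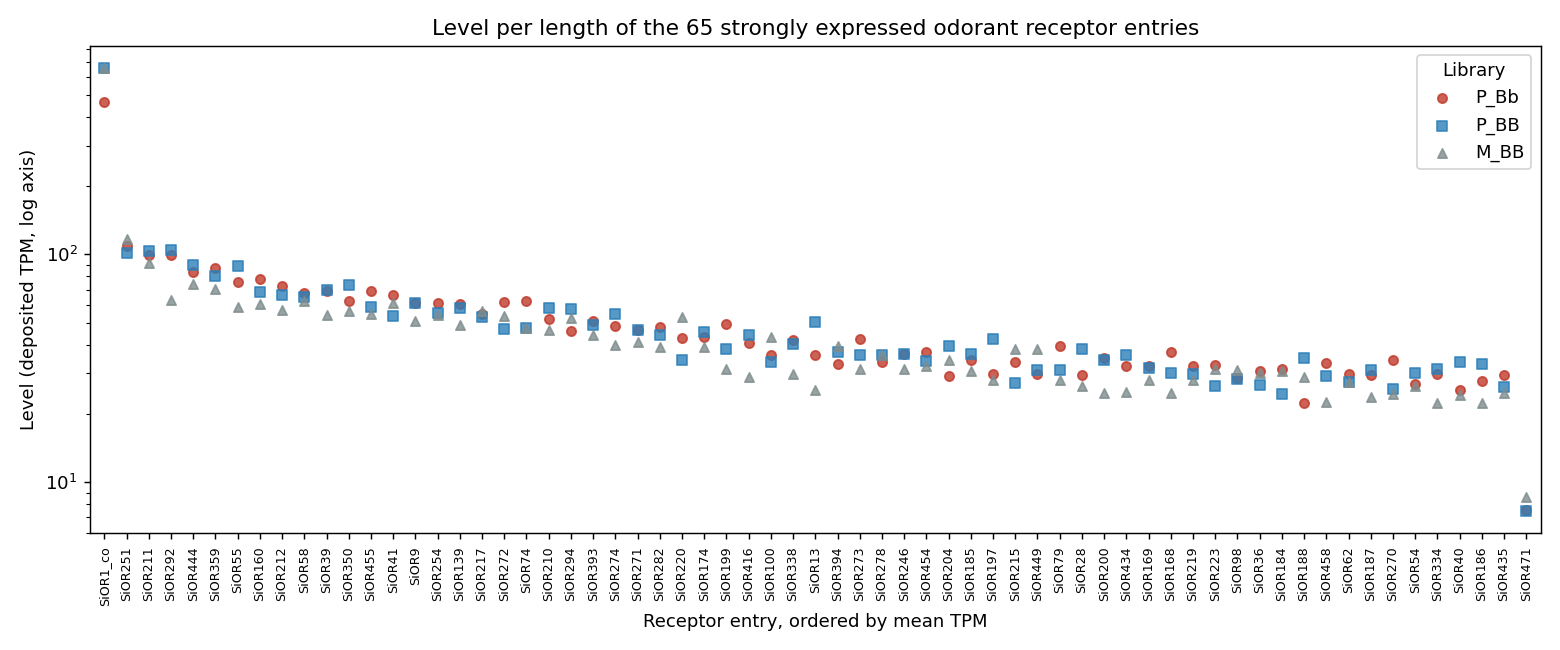
Points give the deposited TPM (log axis) of each of the 65 strongly expressed ORs in P_Bb (circles), P_BB (squares) and M_BB (triangles), ordered by mean TPM. SiOR1_co lies apart at the top, where the P_BB and M_BB points of 656 and 657 TPM coincide, and SiOR471 lies apart at the bottom with 7.45 to 8.58 TPM.

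The order of the ORs was largely kept between libraries. Across the 64 entries without SiOR1_co, Pearson's r of log2 TPM was 0.929 for P_Bb with P_BB (Spearman 0.846). The correlation of P_BB with M_BB was 0.883 (0.813), and that of P_Bb with M_BB was 0.918 (0.862). Such values describe entries, which are not replicates, and the choice of entries by their mean narrows the range of levels. Of the 65 entries, 49 had at least 100 normalized counts in every library.

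The rule used counts, which rise with model length, and TPM restates the same counts per length, so that the following levels are no separate evidence of strong expression. The 65 entries had a median of 37.4 TPM and the other 408 OR models a median of 8.16 TPM, and 0 of these 408 lay above 37.4 TPM. SiOR471 had 101 normalized counts in P_Bb and 97.3 in P_BB, against 111 in M_BB, but its model is 3696 bases long and its mean was 7.87 TPM, below that of 209 ORs outside the set. Only 3 ORs outside the set lay above the next lowest entry, SiOR435, at 26.8 TPM. SiOR108 had 36.3 TPM in P_Bb and 41.0 in P_BB, against 32.4 in M_BB, with a model of 864 bases. SiOR457 had 31.8, 27.3 and 32.6 TPM with a model of 687 bases, and SiOR390 had a mean of 26.9 TPM.

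Lengths were otherwise alike. The median was 1167 bases in the strongly expressed ORs and 1131 bases in the other models, which ran from 507 to 2511 bases. Of the 65 entries, 60 were between 1000 and 1300 bases long. All 473 lengths were multiples of 3, as those of coding sequences are, and the lengths are treated as coding lengths.

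The threshold divided a continuous range. Just inside it were SiOR471 with a mean of 103, SiOR458 with 102 and SiOR186 with 100.9 normalized counts. Just outside were SiOR431 with 99.3, SiOR75 with 99.1 and SiOR390 with 98.0. SiOR431, outside, had 137 normalized counts in P_Bb and 94.0 in P_BB, against 67.3 in M_BB, a wider spread than any of these 3 entries inside.

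Between the P_Bb and P_BB libraries, which came from the same polygyne colonies, most strongly expressed ORs were less than 1.5-fold apart. Of the 65 entries, 39 (60%) were higher and 26 lower in P_Bb than in P_BB. The median ratio was 1.04 (log2 0.06 on the scale of log2(normalized count + 1)). Among all 4867 entries with a mean of at least 100, 56.4% were higher in P_Bb, and the median log2 ratio was 0.03. Here and below, these entries were not matched to the ORs in level. Counting error, which is larger at lower counts, can thus differ between the ORs and the entries beside them. At least 1.5-fold, 1 OR was apart, against 1.17% of all such entries. No OR was higher by this much in P_Bb (0 of 65, against 0.534%), and SiOR188 was at least 1.5-fold lower (1 of 65, against 0.637%). SiOR188 had 85.0 normalized counts in P_Bb and 131 in P_BB, against 107 in M_BB, which gave a P_Bb over P_BB ratio of 0.650 (0.488 to 0.873). P_Bb was thus the lowest library for this OR, with P_BB the highest and M_BB between them. The interval does not cover the division of reads, which had a posterior SD of 5.12 to 6.07 counts for SiOR188. No OR was 1.5-fold apart in this comparison when libraries were given an equal sum over all OR entries, where the share of all entries was not computed.

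The next lowest ratios of P_Bb to P_BB were those of SiOR197, at 0.717 (0.552 to 0.924), and SiOR1_co. The highest were those of SiOR270, SiOR74 and SiOR272. SiOR270 had 128 normalized counts in P_Bb and 94.7 in P_BB, a ratio of 1.36 (1.02 to 1.79). SiOR74 had 241 in P_Bb and 179 in P_BB, a ratio of 1.34 (1.10 to 1.65), and SiOR272 had 226 and 169, with the same ratio of 1.34 (1.09 to 1.65). For 6 ORs (9.23%) the interval lay above equal levels, against 13.6% of all entries compared, and for 5 (7.69%) it lay below, against 8.92%. SiOR1_co is 1 of these 5, and its interval does not cover the division of its reads.

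Against the monogyne library, most strongly expressed ORs were higher in both polygyne libraries with these size factors, though not with libraries scaled to equal OR sums. M_BB was the lowest of the 3 libraries for 45 of the 65 entries (69.2%, against 40.4% of all entries with a mean of at least 100), P_BB for 13 and P_Bb for 7. P_Bb was the highest library for 32 ORs (49.2%, against 38.2%), P_BB for 24 (36.9%, against 27.4%) and M_BB for 9 (13.8%, against 34.5%). M_BB was the lowest for 44 ORs with 3 other scalings and with TPM, but for 27 when libraries were given an equal sum over all OR entries. The shares of all entries were not computed for these settings. An equal sum takes out a shift that all ORs share. These OR sums hold SiOR1_co, whose count rests on the division of reads, but not its tied entry SINVm1_gene_03620. The tied entry had 2218 counts in P_Bb and 1939 in P_BB, against 4005 in M_BB. Scaling to OR sums with this entry added was not tried. Summed over the 64 entries without SiOR1_co, the level was 2982 TPM in P_Bb and 2948 TPM in P_BB, against 2612 TPM in M_BB. The 2 polygyne libraries were thus close to each other in this sum of TPM and the monogyne library was below both. With equal OR sums the same 64 entries had 10933 scaled counts in P_Bb and 10199 in P_BB, against 10356 in M_BB, so that P_BB was then the lowest.

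P_BB and M_BB have the same SB/SB genotype and come from different social forms and colonies. Of the 65 ORs, 50 (76.9%) were higher in P_BB, against 51.2% of all entries compared, and 15 were lower. The median ratio was 1.14 (log2 0.19, quartiles 0.01 and 0.36), against a median log2 ratio of 0.01 over all entries compared. Scaling to equal OR sums takes out a shift that all ORs share. With it the median log2 ratio was -0.01 for the ORs, against -0.19 over all entries compared. The interval lay above equal levels for 17 ORs (26.2%, against 15.4% of all entries) and below for 4 (6.15%, against 17.3%). At least 1.5-fold, 6 ORs were apart, against 3.62% of all entries. Of the 6, 5 were higher in P_BB (7.69% of the ORs, against 1.13%) and 1 was lower (1.54%, against 2.49%). Among XLOC entries (models from a transcript assembly) with a mean of at least 100, 6.57% were this much higher and 3.65% lower. Among the 305 moderately expressed ORs, whose counting error is wider, these shares were 24.9% and 2.95%. SiOR55, 1 of the 5, fell under the limit with its tied entry added, as given below.

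SiOR13 differed most between P_BB and M_BB. It had 126 normalized counts in P_Bb and 173 in P_BB, against 86.6 in M_BB, and its P_BB over M_BB ratio of 2.00 (1.55 to 2.61), which was under 2-fold before rounding, was the largest of any strongly expressed OR between any pair of libraries. The interval does not cover the division of reads, which had a posterior SD of 11.1 to 12.3 counts for this OR. SiOR292, among the highest ORs, had 304 normalized counts in P_Bb and 315 in P_BB, against 189 in M_BB, and its P_BB over M_BB ratio was 1.67 (1.40 to 2.00). Its posterior SD was under 1 count in each library. The 2 polygyne libraries did not differ for SiOR292 beyond counting error, and M_BB was below both.

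The other ORs at least 1.5-fold higher in P_BB were SiOR416, SiOR55 and SiOR197. SiOR416 had 157 normalized counts in P_Bb and 167 in P_BB, against 109 in M_BB, with a P_BB over M_BB ratio of 1.54 (1.21 to 1.96). SiOR197 had 112 in P_Bb and 156 in P_BB, against 103 in M_BB, so that P_BB stood above both other libraries, with a ratio to M_BB of 1.52 (1.19 to 1.97). These intervals do not cover the division of reads, with a posterior SD of up to 6.12 counts for SiOR416 and 7.20 for SiOR197. For SiOR55 the ratio was 1.54 for the entry alone but 1.14 (0.982 to 1.33) for the sum with SINVm1_gene_01740, which is under 1.5-fold and not apart beyond counting error.

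SiOR220 went the other way. It had 160 normalized counts in P_Bb and 126 in P_BB, against 193 in M_BB, and its P_BB over M_BB ratio was 0.650 (0.514 to 0.814). SiOR215 and SiOR100 followed with ratios of 0.715 (0.546 to 0.932) and 0.778 (0.613 to 0.987). SiOR251, the highest OR after SiOR1_co, was also highest in M_BB, with 395 normalized counts in P_Bb and 361 in P_BB, against 416 in M_BB. The P_BB over M_BB ratio of SiOR251 was 0.867, with an interval that began at 0.753 and ended just short of equal levels.

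**Figure D3:**
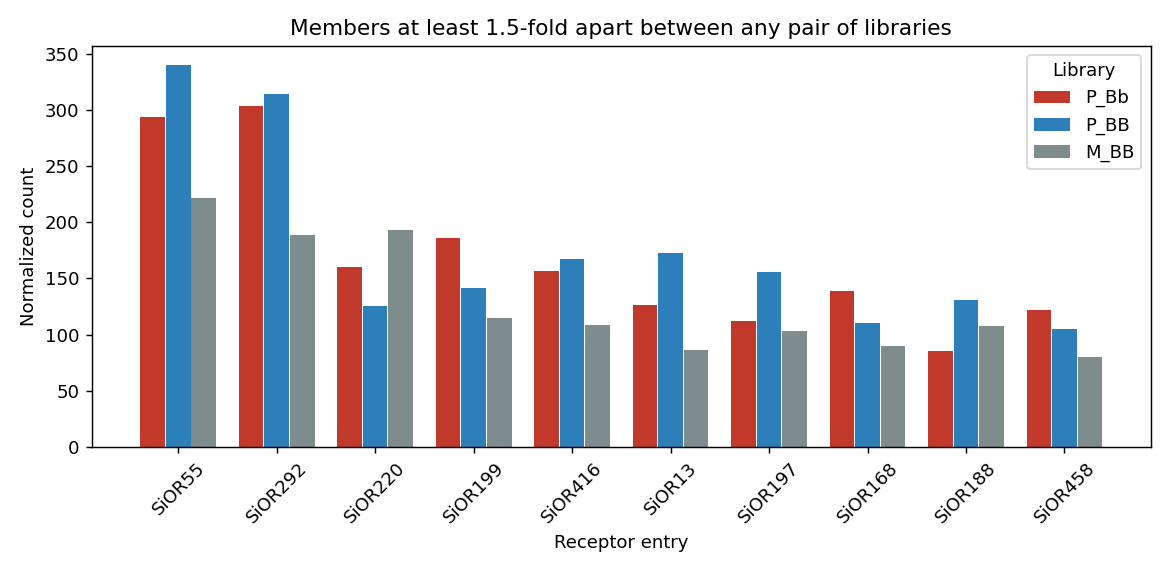
Bars give the normalized count in P_Bb, P_BB and M_BB, from left to right, for the 10 strongly expressed ORs that were at least 1.5-fold apart between any pair of libraries. M_BB is the lowest bar for all but SiOR188, which is lowest in P_Bb at 85.0, and SiOR220, which is highest in M_BB at 193.

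P_Bb and M_BB differ in genotype, social form and colony, and this comparison shares a library with each of the others. Of the 65 ORs, 51 (78.5%) were higher in P_Bb, against 54.7% of all entries compared, and 14 were lower. The median ratio was 1.17 (log2 0.23), against a median log2 ratio of 0.03 over all entries compared. With equal OR sums the median log2 ratio was 0.08 for the ORs, against -0.12 over all entries compared. The interval lay above equal levels for 23 ORs (35.4%, against 19.8% of all entries) and below for 1, SiOR1_co (1.54%, against 16.0%). The interval of SiOR1_co does not cover the division of its reads, and its level alone did not separate the libraries by the RSEM credibility intervals. At least 1.5-fold, 4 ORs were apart, against 3.72% of all entries. All 4 were higher in P_Bb (6.15% of the ORs, against 1.31%) and 0 were lower (against 2.40%). Among XLOC entries with a mean of at least 100, 3.65% were this much higher in P_Bb and 2.55% lower. Among the 305 moderately expressed ORs these shares were 19% and 3.61%.

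The 4 ORs were SiOR199, SiOR292, SiOR168 and SiOR458. SiOR199 had 186 normalized counts in P_Bb and 141 in P_BB, against 115 in M_BB, and its P_Bb over M_BB ratio was 1.62 (1.28 to 2.05). SiOR168 had 139, 110.2 and 89.5 in the same order, with a ratio of 1.55 (1.18 to 2.02), and SiOR458 had 122, 105 and 80.1, with a ratio of 1.52 (1.14 to 2.03). In these 3 ORs P_BB lay between P_Bb and M_BB, whereas in SiOR292 P_BB was level with P_Bb. With TPM in place of normalized counts, 3 ORs were at least 1.5-fold apart without a pseudocount, and 2 with a pseudocount of 1. The share of all entries was not computed with TPM. The lowest ratios of P_Bb to M_BB were those of SiOR1_co, SiOR188 at 0.792 (0.593 to 1.07) and SiOR449 at 0.801 (0.620 to 1.03).

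Differences within the set were modest in size. The ratio of the highest to the lowest library had a median of 1.30 over the 65 ORs and ran from 1.05 to 2.00. Over all entries with a mean of at least 100 the median was 1.18. Counting error raises this ratio, and the entries were not matched to the ORs in level, so that the 2 medians are not on equal terms. The ratio was under 1.5 for 55 ORs, and the share of all entries under this limit was not computed. The steadiest were SiOR278, SiOR217 and SiOR98. SiOR278 had 127 normalized counts in P_Bb and 134 in P_BB, against 133 in M_BB, and SiOR217 had 198, 188 and 199. SiOR98 had 108, 104 and 113, and some of its reads also fitted the tied entry SINVm1_gene_02175. Levels of these 3 ORs did not differ between any pair of libraries beyond counting error.

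The shift against M_BB was not seen in the strongly expressed ORs alone. The 305 moderately expressed ORs had a median log2 ratio of 0.30 for P_BB over M_BB, 0.18 for P_Bb over M_BB and -0.06 for P_Bb over P_BB, beside 0.19, 0.23 and 0.06 for the strongly expressed ones. Their low counts carry wider counting error. Among entries with a mean of at least 100, the 274 XLOC entries, which are models from a transcript assembly, had medians of 0.17, 0.12 and -0.08 in the same order of comparisons. The 4528 entries of the official gene set had medians of -0.0031, 0.02 and 0.03. OR and XLOC medians thus lay above 0 against M_BB with these size factors, whereas between P_Bb and P_BB the median of the strongly expressed ORs lay above 0 and those of the moderately expressed ORs and the XLOC entries below 0. With equal OR sums, the P_BB over M_BB median was -0.19 over all entries with a mean of at least 100, beside -0.01 for the strongly expressed ORs. No test of a difference between these kinds of entry was made.

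**Figure D4:**
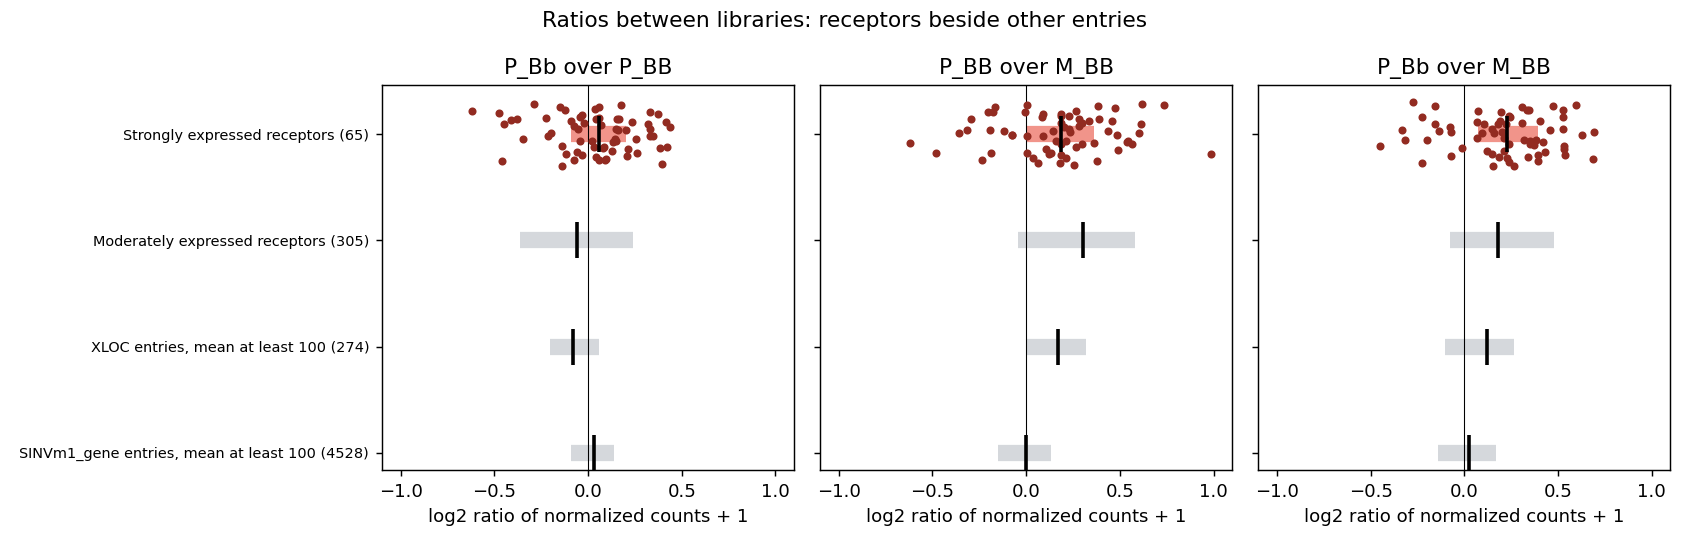
Horizontal bars span the quartiles and black ticks mark the medians of the log2 ratios of normalized counts + 1 for 4 kinds of entry in the 3 comparisons, and each point is 1 of the 65 strongly expressed ORs, spread vertically only to be visible. The OR median lies at 0.19 for P_BB over M_BB and 0.23 for P_Bb over M_BB, beside 0.17 and 0.12 for XLOC entries and -0.0031 and 0.02 for SINVm1_gene entries. The first of these OR medians is -0.01 with libraries scaled to equal OR sums, which take in SiOR1_co without its tied entry. The median over all entries with a mean of at least 100 is then -0.19.

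The names of the strongly expressed ORs tended to follow each other in number. For 30 of the 65 (46.2%), an OR with the next or the preceding number was also in the set, and 86 of the 408 other ORs (21.1%) had such a neighbour in the set. The 30 formed 11 runs, of which the longest held 5 ORs each, SiOR184 to SiOR188 and SiOR270 to SiOR274. The highest run was SiOR210 to SiOR212, with mean levels of 52.2 to 98.2 TPM. How the numbers were given is not stated in the files, and OR models that resemble each other can share reads.

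ORs of 1 run did not all have the same order of libraries. SiOR184 had 116 normalized counts in P_Bb and 88.7 in P_BB, against 111 in M_BB, so that P_BB was the lowest, though not beyond counting error. SiOR188, in the same run, was lowest in P_Bb, and SiOR186 was lowest in M_BB with 102 in P_Bb and 120 in P_BB, against 80.5 in M_BB. In the other long run, SiOR270, SiOR271, SiOR272 and SiOR273 were highest in P_Bb, with P_Bb over P_BB ratios of 1.36, 1.03, 1.34 and 1.20. The intervals of SiOR271 (0.824 to 1.28) and SiOR273 (0.940 to 1.53) include equal levels. So does that of SiOR274, with a ratio of 0.907 (0.734 to 1.12). All 5 had their highest level in a polygyne library, while for SiOR272 the lowest was P_BB.

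**Figure D5:**
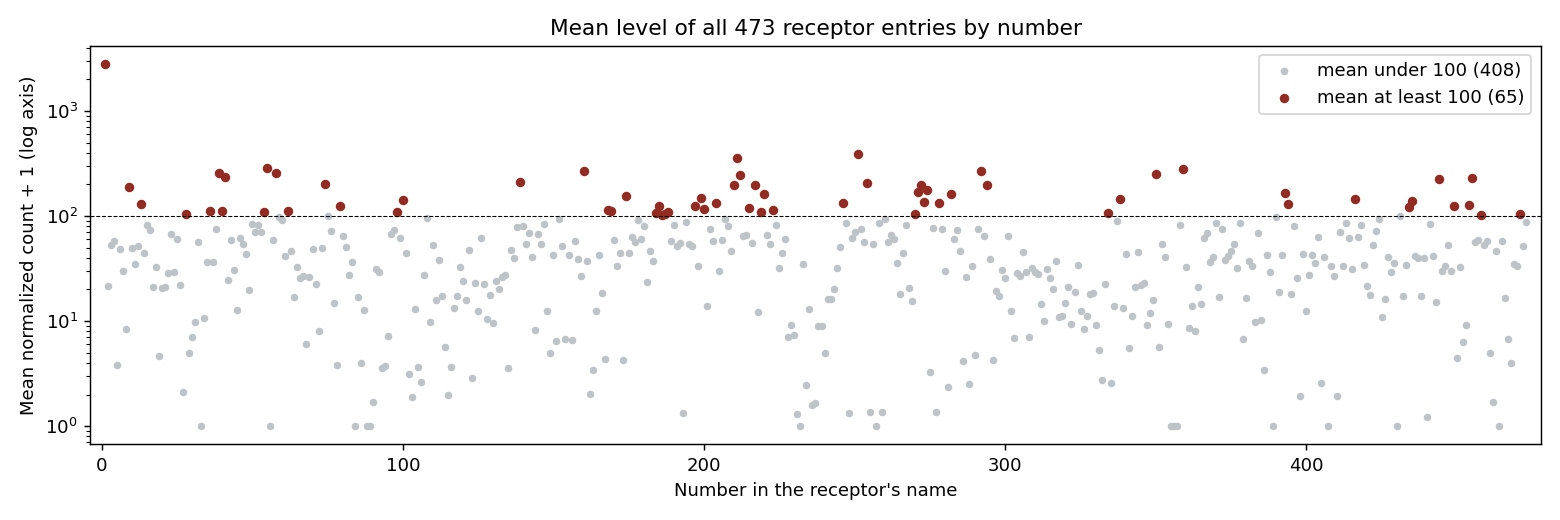
Each point is 1 of the 473 OR entries, placed by the number in its name and its mean normalized count + 1 (log axis), with the 65 strongly expressed ORs in dark red and the dashed line at a mean of 100. The dark points fall in groups, among them the runs SiOR184 to SiOR188 and SiOR270 to SiOR274, with wide stretches of numbers that hold few of them.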

How the data were processed

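The 3 libraries (polyA antennal RNA, amplified with the NuGEN Ovation V.2 kit and sequenced as read pairs on a HiSeq instrument) were grouped by colony type and genotype in the labels. The authors mapped reads to transcript models and deposited expected counts (not normalized, and with fractions where reads were divided) and TPM. Both were made by RSEM, which ignored strand. Per the file headers, other deposited columns held posterior means and SDs, credibility bounds and lengths. The submitters' processing notes name Bowtie2, RSEM and Cuffdiff. The study gives versions for its analysis of the unmixed samples, and those used for these mixtures are not given in the sources used here. A deposited list of possible expression patterns held no measurement, and the deposited transcript models named no OR, so neither was used. No SiOR identifier (0 of 473) was found in the RefSeq table for UNIL_Sinv_3.0, so nothing was joined from it.

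Expected counts were divided by the 75th percentile of the library (all entries, factors with geometric mean 1, 0.938 for P_Bb, 0.958 for P_BB, 1.11 for M_BB). The study names quantile normalization, and this percentile was the choice made here. Log2 ratios used a pseudocount of 1, which understates changes of low entries. The median ratios and the calls of 1.5-fold or more were taken from these log2 ratios. Ratios of single ORs and of tied sums, with their intervals, used no pseudocount. Intervals were computed from counts rounded to whole numbers. Amplified reads without molecular identifiers are not independent molecules, so that intervals cover only counting error. Entries were called tied where an OR and 1 other entry had posterior SDs of at least 3 counts that agreed within 0.05 counts in every library.

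The named ORs were the 10 highest by mean TPM, the 5 highest by normalized count, the 3 highest and lowest ratios of each comparison, those at least 1.5-fold apart, the 3 steadiest and the 3 on either side of the threshold. ORs named for their tied reads, for the runs of numbers or for high TPM outside the set were picked once their values had been seen. The ORs and lists were chosen with earlier results of these data known. Alternatives were TMM scaling (edgeR 4.0.16) and median-of-ratios scaling (DESeq2 1.42.0), both on rounded counts in R 4.3.3, library totals, equal OR sums, TPM, pseudocounts, thresholds, folds, 99% intervals and low posterior SD. Leaving out SiOR1_co, summing tied entries and TPM without a pseudocount were added after seeing the data. Scripts used Python 3.11.15, numpy 2.4.6, pandas 2.3.3, scipy 1.17.1 and matplotlib 3.10.9, and were tested on simulated data.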

Additional observations from a re-analysis of the deposited data

How the results depend on the processing

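Of the results recomputed under other settings, 80 values stayed within the limits set for a change, 29 moved and 1 reversed. These limits were wide, and the 80 values were not all unchanged. They include a set of 49 ORs in place of 65 when every library had to reach 100. They also include a median log2 ratio of 0.010 in place of 0.057 for P_Bb over P_BB with a threshold of 50. The tally of 80 is thus no measure of how stable the results were. With a threshold of 50 the set held 179 ORs and with 200 it held 16, in place of 65. The set's share of OR counts, in the order P_Bb, P_BB and M_BB, was then 78.9%, 77.9% and 79.9%, or 23.8%, 25.3% and 26.7%. It was 46.9%, 46.4% and 48.3% of TPM, and 44.5%, 42.8% and 44.2% without SiOR1_co. The equal OR sums take in SiOR1_co, whose count rests on the division of reads, without its tied entry. Scaling to these sums moved the median log2 ratio of all entries with a mean of at least 100. It became -0.19 for P_BB over M_BB and -0.12 for P_Bb over M_BB. With that scaling the OR median was -0.0087 for P_BB over M_BB, which reversed its direction, and 0.083 for P_Bb over M_BB. Equal OR sums take out a shift that all ORs share, and the median of all entries lay below the OR median in both comparisons. The numbers of ORs at least 1.5-fold apart were then 0 for P_Bb and P_BB, 3 for P_BB and M_BB and 1 for P_Bb and M_BB, in place of 1, 6 and 4. Shares over all entries were not computed for these counts or for those that follow, which are thus not read as a trait of the ORs. With a limit of 25% in place of 1.5-fold, 18, 21 and 26 ORs were apart, and 0 in each comparison with a limit of 2-fold, which follows from the limit used. With a posterior SD under 1 count in all libraries, which leaves 32 ORs, they were 0 for P_Bb and P_BB and 2 for P_BB and M_BB. With TPM the number was 2 for P_Bb and M_BB with a pseudocount of 1, which weighs more on TPM than on counts, and 3 without one, an alternative added after seeing the data. With 99% intervals, which are wider, 6 ORs had an interval that excludes equal levels for P_Bb and P_BB in place of 11, and 12 for P_BB and M_BB in place of 21.

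No paired analysis was possible because there is only 1 library for each worker class, and for the same reason no library was left out. Over the 64 ORs without SiOR1_co, the upper bound of a ratio's interval had a median of 1.63 times its lower bound, so that small differences of single ORs were not detectable at this depth.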

Other observations

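SINVm1_gene_03620, the entry tied to SiOR1_co, had 2365 normalized counts in P_Bb and 2023 in P_BB, against 3599 in M_BB, which is 494, 431 and 772 TPM. Its lowest library was P_BB, where SiOR1_co was given its largest share of the sum. Per length, the sum of both entries was 962 TPM in P_Bb and 1088 TPM in P_BB, against 1429 TPM in M_BB. The other 64 strongly expressed ORs together had 11171 normalized counts in P_Bb and 10808 in P_BB, against 9564 in M_BB, where M_BB was lowest. With libraries scaled to equal OR sums these were 10933 in P_Bb and 10199 in P_BB, against 10356 in M_BB, and P_BB was lowest.

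Counts above 0 were recorded for 444 of the 473 OR models in P_Bb and 447 in P_BB, against 440 in M_BB. At most 3 counts were recorded for 60, 56 and 54 of them in the same order. The 305 moderately expressed ORs summed to 13529 normalized counts in P_Bb and 14015 in P_BB, against 11720 in M_BB.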
